A study of Mus musculus with 52 samples.

Results

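CHIR-99021 (CHIR below) is an inhibitor of the kinase GSK3, and mouse extended pluripotent stem cells (EPSCs) that had received it for 2 days, with or without a second compound, Elvitegravir, were compared with EPSCs in LCDM medium. The members were chosen by treatment label, as 6 of the 52 libraries of the series: 2 of EPSCs given CHIR, 2 of EPSCs given CHIR and Elvitegravir for 2 days, and 2 of EPSCs kept in LCDM medium. The 4 treated libraries formed 1 side, called the CHIR arm, and the question was which genes moved in the same way under both of its treatments. Every library came from 1 cell line, mc6-1/Mu-mClover3-10#, with a wild-type genotype in the labels. LCDM by its published formula itself contains LIF and CHIR beside dimethindene and minocycline. Which base medium the treated cells were in is not stated in the sources, so the contrast is between the arm and cells in LCDM rather than between CHIR and its absence. What was counted is poly(A) RNA assigned to genes from paired reads. Nothing in the labels says whether libraries of 1 group were grown apart, so p-values measure the spread between these libraries, which may be technical.

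GSK3 marks beta-catenin for destruction, and an inhibitor of GSK3 lets beta-catenin reach the nucleus and act with TCF and LEF factors on Wnt target genes. LIF, a cytokine, signals through the receptor pair Lifr and Il6st to the transcription factor Stat3, and in mouse stem cells it sustains naive pluripotency. EPSCs are pluripotent cells grown under conditions reported to widen what they can form. Elvitegravir is a drug against the integrase of HIV.

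The 6 libraries held from 26.3 to 46.9 M counts, and mitochondrial genes took from 1.59% to 2% of them. Among counts from 1 to 10, from 78% to 79.6% were even, as they would be if each mate of a read pair was counted on its own. CHIR library 2, the smallest, stood apart. The SD of the log2 difference between CHIR libraries 1 and 2 was 0.88 over the tested genes, against 0.63 between the 2 libraries given CHIR and Elvitegravir, 0.58 between the EPSC libraries, and 0.61 and 0.57 between CHIR library 1 and each Elvitegravir library. Its departure from the other 3 arm libraries ran with the GC content of the transcripts (r = -0.63 across 13582 genes, a description): the median log2 difference was 0.49 in the fifth of genes with the lowest GC content and -0.66 in the fifth with the highest. The arm's log2 fold change over EPSCs had r = -0.06 with GC content. The part of GC content in single results was not tested. Results that change without this library are given both ways.

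Of 55291 genes, 24602 were at 0 in all 12 libraries fitted together and were not judged, and 19756 passed the count filter and were tested. B2m, Cox4i1, Map1lc3b and G6pdx, which most cells use, are among the genes listed at 0, so a listed 0 is not read as absence here. In the CHIR arm 4460 of them (22.6%) were called at an adjusted p below 0.05 and a log2 fold change of at least 1 in size: 2998 higher (15.2%) and 1462 lower (7.4%) than in EPSCs. Without CHIR library 2 the count was 4461. CHIR and CHIR with Elvitegravir agreed on 3920 genes (19.8% of those tested), 2665 higher (13.5%) and 1255 lower (6.35%). Agreement meant a call in the pooled contrast, all 4 arm libraries beyond both EPSC libraries (true of 29.6% of tested genes upward and 27.3% downward), and a log2 fold change of at least 1 in size with the same sign in each treatment taken alone. The treatments share the EPSC libraries, so this count is a description. Each treatment taken alone gave 4535 calls for CHIR (23%), 2885 higher (14.6%) and 1650 lower (8.35%; 2564 without CHIR library 1), and 3997 for CHIR with Elvitegravir (20.2%), 2747 higher (13.9%) and 1250 lower (6.33%). Among the risen genes 339 had no count in EPSCs. The 40 gene lists used below held 721 tested genes, of which 187 rose, 119 fell and 273 were among those on which the treatments agree.

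**Figure D1:**
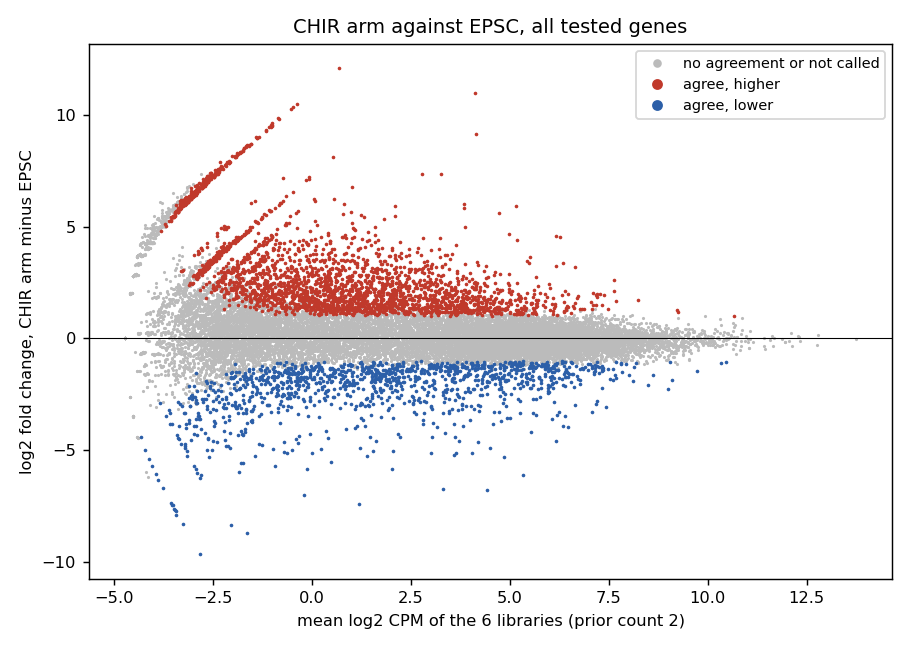
Each point is 1 of the 19756 tested genes, with its mean log2 CPM over the 6 libraries on the horizontal axis and its fitted log2 fold change (CHIR arm minus EPSC) on the vertical axis. The 2665 genes on which both treatments agree upward are red and the 1255 downward are blue; the upper diagonal streak holds genes with no count in EPSCs, whose fitted fold change depends on the prior count.

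Set directly against each other, with no EPSC library in the contrast, CHIR with Elvitegravir and CHIR alone differed in 0 of 19756 genes (0%) by edgeR's quasi-likelihood test. The smallest adjusted p was 0.512, 1358 genes had an unadjusted p below 0.05, and the Wald test of DESeq2 called 1 gene. Without CHIR library 1, when CHIR library 2 alone stood for CHIR, 1247 genes were called, and without CHIR library 2 there were 0. In both cases 1 CHIR library was left, and it is assumed to vary as the libraries of the other groups do. A p above the threshold does not show that Elvitegravir left these genes unchanged: at n = 2 a side, Stra8 differed by 0.15 (SE 0.15) on the log2 scale, Pou5f1 by 0.67 (SE 0.20) and Socs3 by 0.71 (SE 0.34).

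Where 4 arm values stand in a row below, they are CHIR libraries 1 and 2 and then Elvitegravir libraries 1 and 2. Among genes with a mean of at least 10 CPM in the arm, the largest rises on which both treatments agreed included genes of meiosis and of visceral endoderm. Their choice by agreement and size fixes that the arm libraries lie above both EPSC libraries. Stra8 (chr6:34920163-34939344, GRCm38), a gene switched on by retinoic acid before meiosis, stood at 206 and 183 CPM (counts scaled to library size with TMM factors) in the CHIR libraries and 206 and 225 with Elvitegravir, against 0.139 and 0.0514 in EPSCs. The 4 arm libraries were close together and far above the EPSC pair, with a log2 fold change of 11.00 (SE 0.27, adjusted p = 7.59e-10; 11.90 without EPSC library 1). Cubn (chr2:13276338-13491813), which codes for the endocytic receptor cubilin, had 149.6 and 155 CPM with CHIR and 128 and 128 with Elvitegravir, against 0.232 and 0.257 in EPSCs (9.15, SE 0.33, adjusted p = 9.73e-09). The Elvitegravir pair lay below the CHIR pair, and both were far above EPSCs. Nxf7, an RNA export gene family member, was at 9.55, 13, 10.5 and 9.01 CPM and had no count in EPSCs, which makes it at least 144-fold higher. The floor behind this bound is 6 counts over the EPSC pair, or 3 read pairs with both mates counted, and it covers counting error only. The Nodal inhibitor Lefty1 stood at 103, 62.1, 112 and 118 CPM against 2.32 and 1.7. CHIR library 2 was the lowest of the 4, yet far above the EPSC libraries. Further rises named by the same limit were in Car4, a carbonic anhydrase, Greb1l, Slc38a4, an imprinted amino acid transporter, Rasef, the long non-coding RNA Halr1, Srgn, which codes for serglycin, and Clic6, with log2 fold changes from 5.37 (Clic6, adjusted p = 1.81e-07) to 7.38 (Car4, adjusted p = 2.05e-07). Without EPSC library 1 that of Clic6 was 6.28. Larger fold changes in genes under the limit are given with their groups below.

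The deepest falls were taken from genes with a mean of at least 10 CPM in EPSCs, so that expression there is part of their choice. Trh, the precursor of thyrotropin-releasing hormone, fell from 499 and 509 CPM in the EPSC libraries to 5.11 and 3.03 with CHIR and 4.29 and 5.84 with Elvitegravir (-6.78, SE 0.35, adjusted p = 1.2e-07). Ntn1, the guidance cue netrin 1, went from 694 and 687 to 10.7, 6.37, 10.5 and 12.1 CPM, and Abca1 (chr4:53030787-53159895), a transporter that exports cholesterol, from 225 and 215 to 1.49, 2.63, 2.21 and 2.08. All 4 arm libraries lay far below the EPSC pair for these genes, which follows from their choice by agreement and size of fall. Laptm5, a lysosomal membrane protein, fell by 5.30 on the log2 scale (SE 0.13), and Epha4, an ephrin receptor, by 5.24 (SE 0.11), both with little spread: the arm values of Epha4 were 3.61, 3.59, 3.59 and 3.39 CPM. Gad1, Tgm3, Sh2d4b, Nkx6-3, Trpm1 and Saa3 were the others named by this limit, with Socs3. Trpm1 had 0.0226 and 0.074 CPM with CHIR and no count in either Elvitegravir library, against 10.9 and 9.82 in EPSCs.

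**Figure D2:**
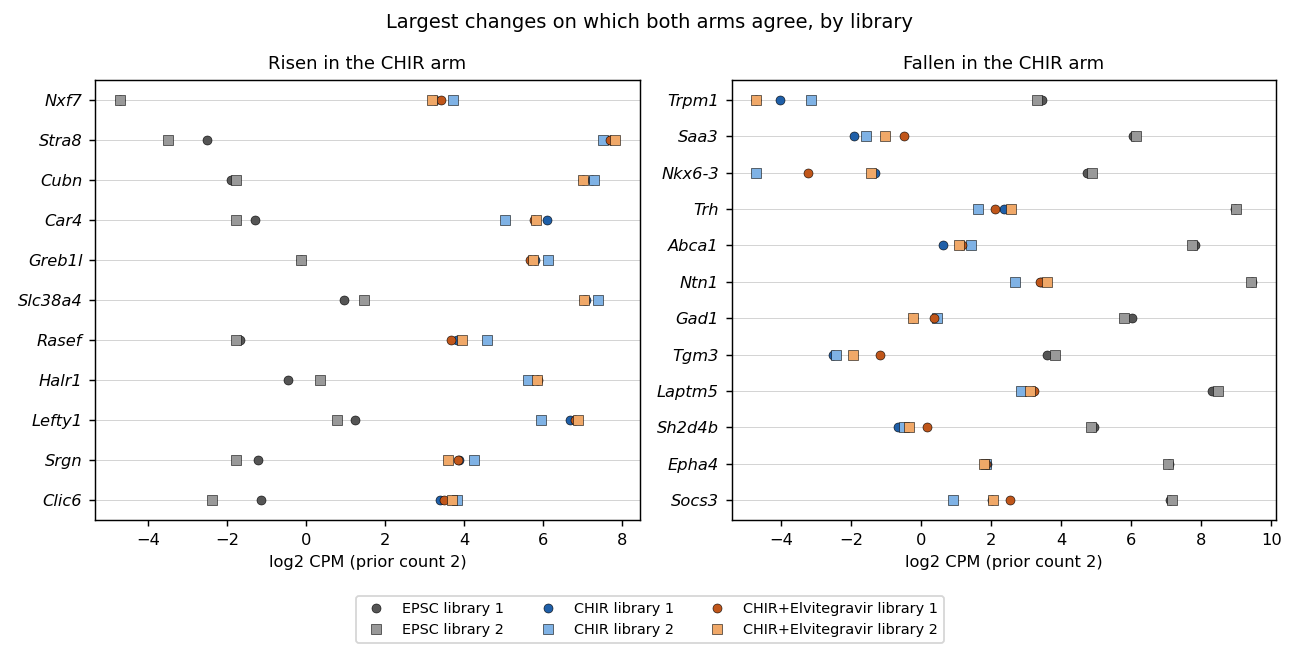
Log2 CPM (prior count 2) of 11 risen and 12 fallen genes, named by the rule for the largest fold changes on which both treatments agree, 1 symbol per library: grey EPSC, blue CHIR, orange CHIR with Elvitegravir, squares for library 2. In every row the 4 arm libraries lie on 1 side of both EPSC libraries, which the rule requires. Pale blue squares (CHIR library 2) are the outermost of the arm for several genes.

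Genes of the LIF pathway fell: 13 of 24 tested members of the list fell and 3 rose, with a median log2 fold change of -1.44 against 0.09 over all tested genes, of which 15.2% rose and 7.4% fell. At the receptors, Lifr fell from 78.8 and 75 CPM to 9.64 and 8.14 with CHIR and 9.33 and 10.7 with Elvitegravir (-3.02, SE 0.11, adjusted p = 9.98e-09). The shared subunit Il6st, also known as gp130, stood at 126 and 131 CPM in EPSCs and at 62.4, 65.9, 65.8 and 60.9 in the arm, a fall of 1.01 on the log2 scale that sits just past the size threshold and was not called without EPSC library 2 or without Elvitegravir library 2. Osmr, the receptor for oncostatin M, fell by 2.94. The ligand Lif itself was at 9.37 and 10.9 CPM in EPSCs and 8.94, 6.22, 9.13 and 10.2 in the arm, and the kinase Jak1 at 61.2 and 63.2 in EPSCs and 74.8, 84.8, 74.9 and 74.1 in the arm; neither was called. Stat3 fell from 153 and 153 to 34.2, 31.8, 33.5 and 32.8 CPM (-2.21, SE 0.08, adjusted p = 7.13e-09), with hardly any spread within the arm. Of the targets, Socs3, the feedback inhibitor that Stat3 induces, went from 139 and 142 CPM to 4, 1.85, 5.77 and 4.11 (-5.15, SE 0.31, adjusted p = 3.62e-07). The acute-phase gene Saa3 went from 66.5 and 70.5 to 0.226, 0.296, 0.671 and 0.445, below 1 CPM in each arm library. Rhox5, a homeobox gene of the X chromosome, was a member that rose, from 0.278 and 0.309 to 8.85, 3.96, 9.46 and 9.4 CPM.

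The promoter of Socs3 is shown because this Stat3 target fell and its window holds a STAT motif. The window (RefSeq, GRCm38.p6, chr11:117969317-117969616, minus strand) runs from 250 bases before to 50 after the start site, 5′ to 3′, with the match to TTCNNNGAA in capitals, at base -154 from the start site.
Socs3: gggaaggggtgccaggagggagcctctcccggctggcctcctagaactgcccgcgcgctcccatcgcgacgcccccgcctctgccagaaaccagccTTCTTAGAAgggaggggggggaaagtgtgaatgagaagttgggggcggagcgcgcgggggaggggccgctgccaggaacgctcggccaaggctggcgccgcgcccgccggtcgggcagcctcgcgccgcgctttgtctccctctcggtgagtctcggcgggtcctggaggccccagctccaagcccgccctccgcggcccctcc
This motif, which reads the same on both strands, was in 8.47% of 27025 promoters of the same length and in 2 of the 21 list members with a promoter entry. Of the 11 fallen members with an entry 1 held it. A match is a description of letters, and a missing match says only that the letters are not in this window.

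Core and naive pluripotency factors fell: 16 of 23 tested members fell, 0 rose, and the median log2 fold change was -2.73. Both treatments agreed on all 16. In bulk RNA a smaller share of cells with a transcript and less of it per cell cannot be told apart. Nanog, a core factor, went from 223 and 233 CPM in EPSCs to 22.6 and 21.8 with CHIR and 20.6 and 23.9 with Elvitegravir (-3.36, SE 0.12, adjusted p = 9.98e-09). Pou5f1, which codes for Oct4, fell less, from 289.8 and 282 to 67, 41, 87.7 and 83.8 CPM (-2.03, SE 0.23, adjusted p = 3.77e-05), and was lowest in CHIR library 2. Esrrb, a nuclear receptor that holds the naive state, went from 560.5 and 564 to 33, 30.6, 40.5 and 39.2 CPM. Among the Klf factors, Klf4 fell by 5.13 (SE 0.35), Klf5 by 2.99 (SE 0.15) and Klf2 by 2.36 (SE 0.17) on the log2 scale. Nr5a2 fell by 4.66, Nr0b1 by 4.60, Tcl1 by 4.93 and Prdm14, a repressor of DNA methylation, by 5.15. Sox2 was listed at 0 in all 12 libraries and was not judged.

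Formative and primed epiblast genes, those of the cells that leave the naive state, rose in part. Of 16 tested members 7 rose, 1 fell and 8 were not called (median 0.85). Pou3f1, an Oct factor of that stage, rose from 7.33 and 7.46 CPM to 68 and 27.9 with CHIR and 59.2 and 63.7 with Elvitegravir. Its value in CHIR library 2 was less than in the other 3, though above both EPSC libraries. Fgf5, a ligand of the primed epiblast, rose from 0.186 and 0.257 to 2.08, 2.66, 1.27 and 1.95 CPM (3.16, SE 0.39). The Zic factors Zic2 and Zic5 rose by 1.12 and 1.32, and Lefty2 by 2.97. Otx2, needed to leave the naive state, was the member that fell, from 25.3 and 28 to 13.2, 11.5, 8.59 and 11 CPM (-1.27, SE 0.16, adjusted p = 6.8e-05). Sox3, at 7.15 and 7.46 CPM in EPSCs, had 17.4 and 6.44 with CHIR and 17.2 and 18.8 with Elvitegravir, so that its groups overlapped in CHIR library 2, and was not called (adjusted p = 0.0563). Without that library Sox3 was called higher, with a log2 fold change of 1.27. It was also called higher with all 4 arm libraries under DESeq2, without the count filter, in the fit of all 52 libraries, with a replicate block and with edgeR's newer option.

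Of the DNA methylation genes, 2 of 12 rose, a share near the 15.2% of all tested genes, and 4 fell, beside 7.4%. The treatments agreed on the 2 rises and on 3 of the falls. The de novo enzyme Dnmt3a rose from 67.4 and 68.3 CPM to 275, 224, 267 and 283 (1.95, SE 0.13), while its sister Dnmt3b went from 440.1 and 432 to 535, 565, 516 and 504 and was below the size threshold. The demethylating oxidase Tet1 fell from 827 and 859.7 to 252, 316, 248 and 269, and Tet3, of the same family, rose from 20.4 and 20.4 to 69.3, 48.6, 62.9 and 70.5. Zfp57, which protects methylation at imprinted loci, fell by 3.07 (SE 0.08, adjusted p = 1.55e-09).

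Genes induced by Wnt signalling did not move as 1 group: 4 of 21 tested targets rose and 8 fell, with a median of -0.44. The treatments agreed on 2 of the rises and on all 8 falls. The feedback inhibitor Axin2 was at 122 and 122 CPM in EPSCs, and at 37.6 and 21.1 with CHIR and 40.9 and 47 with Elvitegravir (-1.74, SE 0.25, adjusted p = 0.000201). Sp5, a repressor induced by Wnt, fell from 50.9 and 46.6 to 4.16, 2.37, 6.17 and 6.42 CPM (-3.34, SE 0.28, adjusted p = 3.76e-06). For both, CHIR library 2 was lowest and the Elvitegravir pair highest in the arm, and all 4 were below EPSCs. Tbx3, T, also called Brachyury, and Cdx4 fell by 3.04, 2.67 and 1.99 on the log2 scale. Dkk1, a secreted Wnt inhibitor, rose from 0.232 and 0.463 to 2.67, 2.52, 2.92 and 2.17 CPM (2.89, SE 0.31, adjusted p = 2.59e-05). The nuclear partners of beta-catenin Lef1 and Tcf7 had log2 fold changes of 0.65 (adjusted p = 0.00285) and 0.56 (adjusted p = 0.000396), under the size threshold. Within the pathway's machinery 9 of 36 tested members rose and 7 fell (median 0.04). The ligand Wnt8a rose from 9.16 and 7.76 to 110.3, 88.3, 112 and 110.5 CPM, Wnt3 by 3.44 and Wnt4 by 3.38, whereas the receptor Fzd5 fell from 157 and 163 to 13.8, 12.5, 11.4 and 15.5 CPM (-3.58, SE 0.14). The target of CHIR, Gsk3b, was at 75.8 and 73.3 CPM in EPSCs and at 81.4, 95.6, 69.3 and 78.7 in the arm (adjusted p = 0.481); inhibition of its protein would not show in this measure.

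Sp5 is shown beside these values as the fallen Wnt target whose promoter window holds a TCF and LEF motif. The window (RefSeq, GRCm38.p6, chr2:70474673-70474972, plus strand) has the match to CTTTGAT in capitals, at base -104 from the start site.
Sp5: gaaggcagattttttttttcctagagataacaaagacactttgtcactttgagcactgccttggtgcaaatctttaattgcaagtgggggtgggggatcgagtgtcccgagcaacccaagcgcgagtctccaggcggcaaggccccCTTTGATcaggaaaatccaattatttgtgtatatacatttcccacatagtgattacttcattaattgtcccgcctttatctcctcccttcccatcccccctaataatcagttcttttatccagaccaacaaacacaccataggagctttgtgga
On either strand this motif was in 3.72% of the 27025 promoters and in 1 of the 12 Wnt targets with an entry, of which 4 had fallen and 3 had risen.

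**Figure D3:**
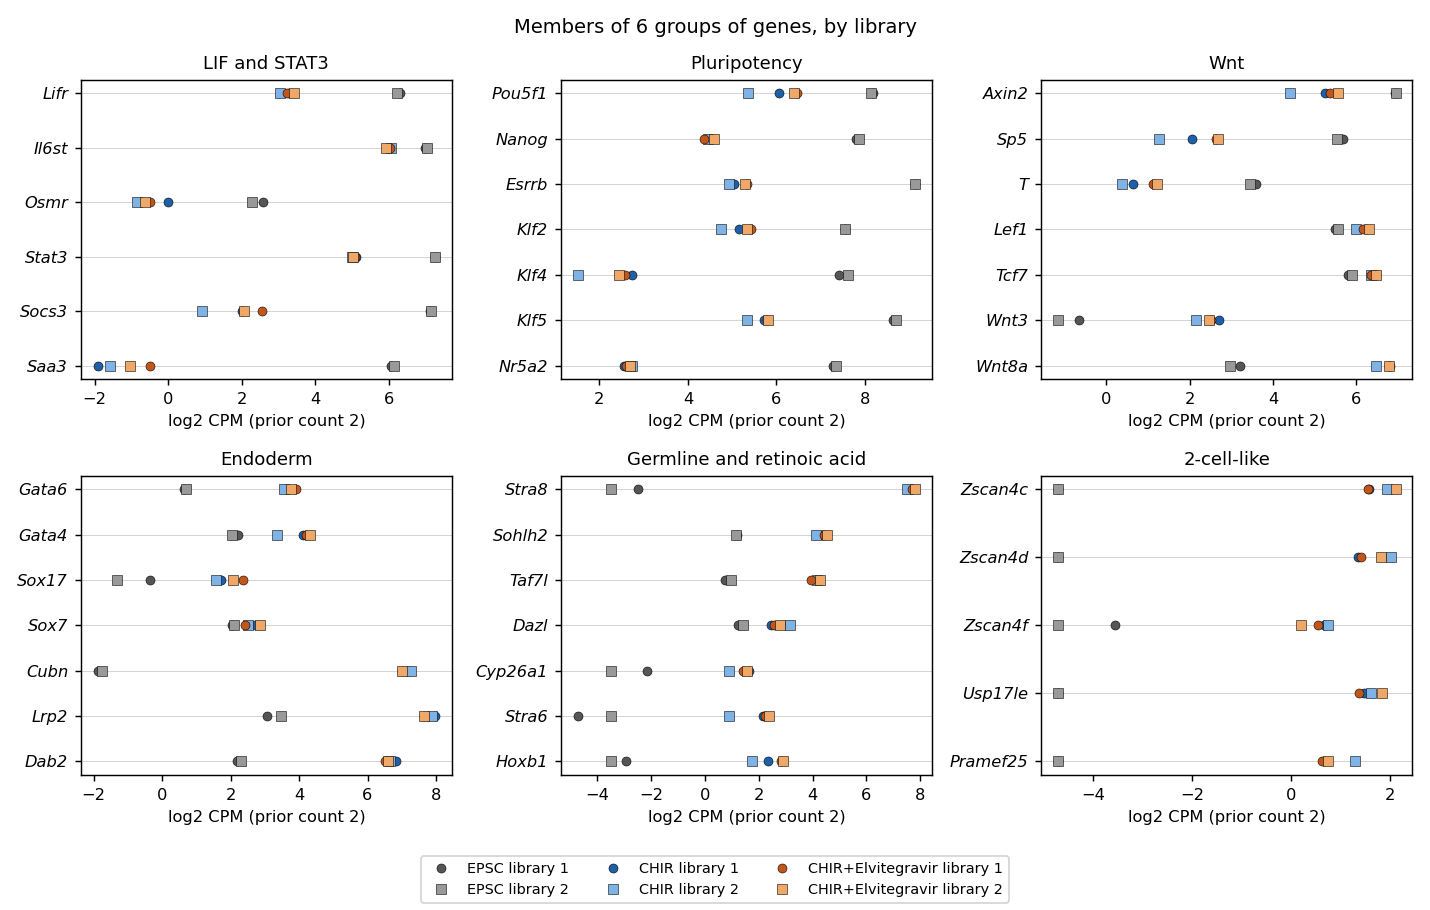
Log2 CPM (prior count 2) by library for members of 6 groups of genes, with grey for EPSC, blue for CHIR and orange for CHIR with Elvitegravir. The LIF and pluripotency members lie lower in the 4 arm libraries, the endoderm, germline and 2-cell-like members lie higher, and the Wnt panel holds both directions.

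Transcription factors of primitive and visceral endoderm, the yolk sac lineage, rose: 12 of 17 tested members rose and 1 fell, with a median of 2.79. Gata6, which starts the lineage, rose from 1.51 and 1.59 CPM to 12.3 and 11.8 with CHIR and 15.1 and 13.6 with Elvitegravir (3.09, SE 0.15, adjusted p = 8.01e-08). Gata4 rose from 4.62 and 4.04 to 17.3, 10.2, 18.2 and 20 CPM and Sox17 from 0.742 and 0.36 to 3.25, 2.96, 5.1 and 4.17. Sox7, at 4.08 and 4.22 CPM in EPSCs and 6.55, 5.7, 5.3 and 7.28 in the arm, was not called. Of the visceral endoderm factors, Foxa2 rose by 3.55 (SE 0.39) and Tfec by 3.76 (SE 0.37). Hnf4a, with 4 counts over the EPSC pair, also rose, but the size of its log2 fold change rests on them: 5.48 (SE 0.68) with both EPSC libraries, 9.91 without EPSC library 1, which leaves it no EPSC count, and 4.57 without EPSC library 2.

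Receptors and products of visceral endoderm rose in part, 12 of 23 tested members with 1 that fell and a median of 1.82 (1.69 with the gene lacking a count in 1 group at its bound). Those that rose include the parts of the endocytic receptor complex: beside Cubn, its partner amnionless (Amn) rose by 3.13 (SE 0.34), megalin (Lrp2) from 8.26 and 11 CPM to 252, 234, 199.7 and 199.5, and the adaptor Dab2 from 4.5 and 4.91 to 113, 101, 91.2 and 97. Lrp2 and Dab2 had log2 fold changes of 4.52 (SE 0.20, adjusted p = 3.28e-08) and 4.42 (SE 0.14, adjusted p = 4.63e-09). The secreted lipid carriers were uneven. Apob rose from 0.557 and 0.463 to 4.67, 7.84, 4.97 and 5.73 CPM, Apoa2 was at 9.4 and 10.8 in EPSCs and 7.21, 4.29, 8.05 and 9.65 in the arm and not called, and Apoe was the member that fell, from 1501 and 1529 to 310.1, 171, 383 and 400.5 CPM. A further 7 members did not pass the count filter and 1 was listed at 0. Basement membrane genes, which parietal endoderm makes in quantity, had 2 of 19 risen and 3 fallen. The treatments agreed on 1 rise and 0 falls, and without CHIR library 2 the list had 3 risen and 0 fallen. The laminin chains Lama1, Lamb1 and Lamc1 had log2 fold changes of 0.33, 0.88 and -0.91, under the size threshold.

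In the primitive streak list 6 of 17 tested members rose and 3 fell. Mixl1, a homeobox gene of the streak, rose from 0.464 and 0.36 CPM to 3.09, 3.26, 3.02 and 2.72, and Fgf8 from 0.278 and 0.0514 to 3.05, 1.07, 2.35 and 2.28, while T, given above, fell. BMP and TGF-beta pathway genes were as mixed, with 7 of 23 risen and 6 fallen. The ligand Bmp4 fell from 61.7 and 66.5 CPM to 2.64, 2.11, 3.79 and 3.48 (-4.41, SE 0.23, adjusted p = 1.03e-07), and its target genes Id1 and Id3 fell by 3.81 (SE 0.14) and 2.39 (SE 0.19). Smad6, an inhibitor of the pathway that BMP also induces, rose by 2.27 (SE 0.27). Lefty1 and Lefty2, inhibitors of Nodal, were among the risen members.

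Of the trophectoderm list 10 of 24 tested members rose and 3 fell. The factors Cdx2 and Gata3, which specify this outer layer of the blastocyst, were low in both groups. Cdx2 had 0.603 and 0.977 CPM in EPSCs and 1.45, 0.888, 1.34 and 1.67 in the arm (adjusted p = 0.11), and Gata3 0.394 and 0.36 CPM in EPSCs and 0.248, 0.222, 0.201 and 0.0556 in the arm (adjusted p = 0.0529). Gata3 was called lower with RLE size factors, with DESeq2, and when CHIR library 1 or 2 was left out. The risen members include Dlx3, from 0.418 and 0.566 to 8.27, 6.88, 7.45 and 9.06 CPM. Keratins and junction genes rose in 10 of 20 and fell in 2. The simple epithelial keratins Krt8, Krt18 and Krt19, which are also on the trophectoderm list, rose by 2.18 (SE 0.17), 2.43 (SE 0.15) and 3.09 (SE 0.28). Krt8 had 53.3, 38.3, 51.2 and 44.5 CPM in the arm against 10.2 and 10.4 in EPSCs. Among Hippo pathway genes, which steer the choice between trophectoderm and inner cells, 5 of 16 rose and 2 fell. Amot rose from 9.28 and 8.23 to 109.8, 102, 86 and 93.3 CPM, and Tead4 fell from 63.6 and 73.9 to 13.5, 10.2, 12.8 and 12.5.

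Genes of the 2-cell-like state, a rare condition of stem cell cultures that resembles the 2-cell embryo, rose in 24 of 33 tested members and fell in 1. Of the tested members 24 had no count in EPSCs, and with each of these at its bound the median log2 fold change was 2.17. A gene without a count in EPSCs passes the count filter only through other libraries of the fit, and it cannot fall. The balance of rises and falls is therefore not read as a result for those 24. Levels stayed low. Zscan4c, a member of the family that marks the state, had 2.94 and 3.77 CPM with CHIR and 2.89 and 4.28 with Elvitegravir and no count in EPSCs, which makes it at least 47.4-fold higher. Zscan4d had 2.53, 4, 2.62 and 3.5 CPM (at least 43.2-fold higher), the deubiquitinase family gene Usp17le 2.73, 3.03, 2.55 and 3.53 (at least 40.5-fold higher), and Pramef25 1.54, 2.4, 1.51 and 1.64 (at least 24.2-fold higher). Copies of these families are nearly alike, so how reads were shared among them is uncertain. The level summed over the list was from 567.3 to 808.4 CPM in the arm and 653.5 and 658.6 in EPSCs, so the groups overlapped on the sum. The EPSC sum comes wholly from members other than the 24 without a count there, so the overlap does not describe those 24. Of 23 factors of chromatin and its control linked to this state, mostly repressors but with the activators Dppa2 and Dppa4 among them, 0 rose and 2 fell, near the 7.4% of all tested genes that fell.

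Germline and meiosis genes rose in 21 of 28 tested members and fell in 1, with a median of 2.02 (1.97 with 3 genes that lack a count in 1 group at their bound), and the treatments agreed on all 21. After Stra8, the germ cell factors Sohlh2 and Taf7l rose from 2.23 and 2.21 to 20.2, 17.3, 21.3 and 23 CPM and from 1.62 and 1.9 to 17.5, 17.7, 15.4 and 19.4. Dazl, an RNA-binding protein of germ cells, rose by 1.46 (SE 0.26). Ddx4, also called Vasa, was at 18.8 and 17.2 CPM in EPSCs and 29, 38.9, 29.5 and 33.3 in the arm, a log2 fold change of 0.86 (adjusted p = 0.000543) under the size threshold. Retinoic acid genes, to which Stra8 also belongs, rose in 10 of 22 tested members and fell in 3. Cyp26a1, which breaks retinoic acid down, rose from 0.186 and 0.0514 to 3.12, 1.85, 2.62 and 2.89 CPM. Stra6, the receptor for retinol carried in blood, had 2 counts in 1 EPSC library and 4.47, 1.85, 4.7 and 5.12 CPM in the arm. Dhrs3, a retinaldehyde reductase, rose by 1.72 (SE 0.26). The retinoid-responsive Hoxb1 rose from 0.0928 and 0.0514 to 5.01, 3.33, 6.98 and 7.51 CPM. Of the Hox and Cdx list 7 members were listed at 0. Of the 13 tested 5 rose and 2 fell, beside 15.2% and 7.4% of all tested genes. The retinoic acid element, searched as 2 copies of AGGTCA 5 bases apart on either strand, was in 0 of 17 retinoic acid genes with a promoter entry and in 2 of 27025 promoters.

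Targets of FGF and ERK signalling fell in 5 of 19 tested members and rose in 2. The transcription factor Etv5 went from 453 and 473 CPM to 138, 123, 145 and 142, and the feedback inhibitors Spry2 and Spry4 fell by 2.07 (SE 0.09) and 2.24 (SE 0.12). The ERK phosphatase Dusp6 was at 119.7 and 119.7 CPM in EPSCs and 82.9, 94.7, 85.1 and 78 in the arm, under the size threshold. Ier3, an early response gene, rose from 10.5 and 10.3 to 59.6, 51.3, 49.2 and 59.8.

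Metabolic genes moved in separate groups. Glycogen and glucose handling rose in 8 of 15 tested members with 0 fallen (median 1.12): phosphoglucomutase Pgm1 from 18.7 and 20.3 CPM to 73.2, 85.3, 73.9 and 80.2, the branching enzyme Gbe1 by 1.36 (SE 0.27), Stbd1, which binds glycogen, by 3.32 (SE 0.29) and Ppp1r3c, a regulator of glycogen synthesis, by 3.09 (SE 0.42). Glycogen synthase Gys1 itself was at 54 and 57.4 CPM in EPSCs and 73.7, 51.8, 67.7 and 69.2 in the arm and not called. Glycolysis and hypoxia genes rose in 8 of 24 with 0 fallen (5 of 24 with RLE size factors, with counts divided by 2, with DESeq2 or without CHIR library 1). The lactate transporter Slc16a3 rose from 63 and 63.2 CPM to 471, 157, 409.6 and 517, with CHIR library 2 far below the other 3, and the oxygen sensor Egln3 from 30 and 33.2 to 156, 152, 117 and 133. Nuclear genes of oxidative phosphorylation had 0 of 22 calls with edgeR and 0 with DESeq2 (median -0.34), and 12 of them were lower at an unadjusted p below 0.05. LXR targets had 3 of 19 risen, a share near the 15.2% of all tested genes, and 5 fallen, beside 7.4%. The treatments agreed on the 3 rises and the 5 falls, and only fallen members are named here. Beside Abca1 and Apoe, the lipid transporter Abcg1 fell from 52.2 and 51.2 to 3.88, 3.48, 6.91 and 7.34 CPM, and the desaturases Scd1 and Scd2 by 1.11 and 1.12 on the log2 scale. The threonine dehydrogenase Tdh, which feeds 1-carbon metabolism in mouse stem cells, fell from 336 and 318 to 15.3, 19.4, 18.1 and 18.1 CPM (-4.20, SE 0.12, adjusted p = 1.77e-09). Lysosome genes fell in 6 of 24 and rose in 1. Their regulator Tfeb went from 59.8 and 61.2 to 7.95, 4.85, 6.95 and 6.84 CPM, and Gpnmb from 32.2 and 31.9 to 4.81, 5.51, 6.01 and 5.84.

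Cell cycle genes and MYC targets held few calls beside the 22.6% of all tested genes. Cell cycle genes had 0 of 24 calls with edgeR and 0 with DESeq2 (median -0.13), with 11 at an unadjusted p below 0.05, 3 higher and 8 lower, and MYC targets 1 of 20 in each direction. These calls were the paralogs Mycn, which fell from 145 and 139 CPM to 11.1, 8.14, 11.6 and 8.84, and Mycl, which rose from 8.72 and 8.02 to 25.8, 24.7, 23.4 and 25.1. Myc was at 42.6 and 46.4 CPM in EPSCs and 43.1, 27.4, 45.9 and 40.5 in the arm and not called. Of the p53 and apoptosis list 2 of 22 rose and 3 fell, a share near that of all tested genes: the survival gene Mcl1 rose by 1.28 (SE 0.09) and the death gene Bcl2l11 by 1.36 (SE 0.11), while Bcl2 fell by 1.48 (SE 0.19). Without CHIR library 2 this list had 2 risen and 1 fallen. Interferon and antigen presentation genes rose in 5 of 20 and fell in 4. The RNA sensor Ddx58 fell from 345 and 353 CPM to 36.5, 39.7, 34 and 33.1, and the class I gene H2-K1 rose from 44.1 and 43.7 to 161, 158, 170.5 and 168.

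**Figure D4:**
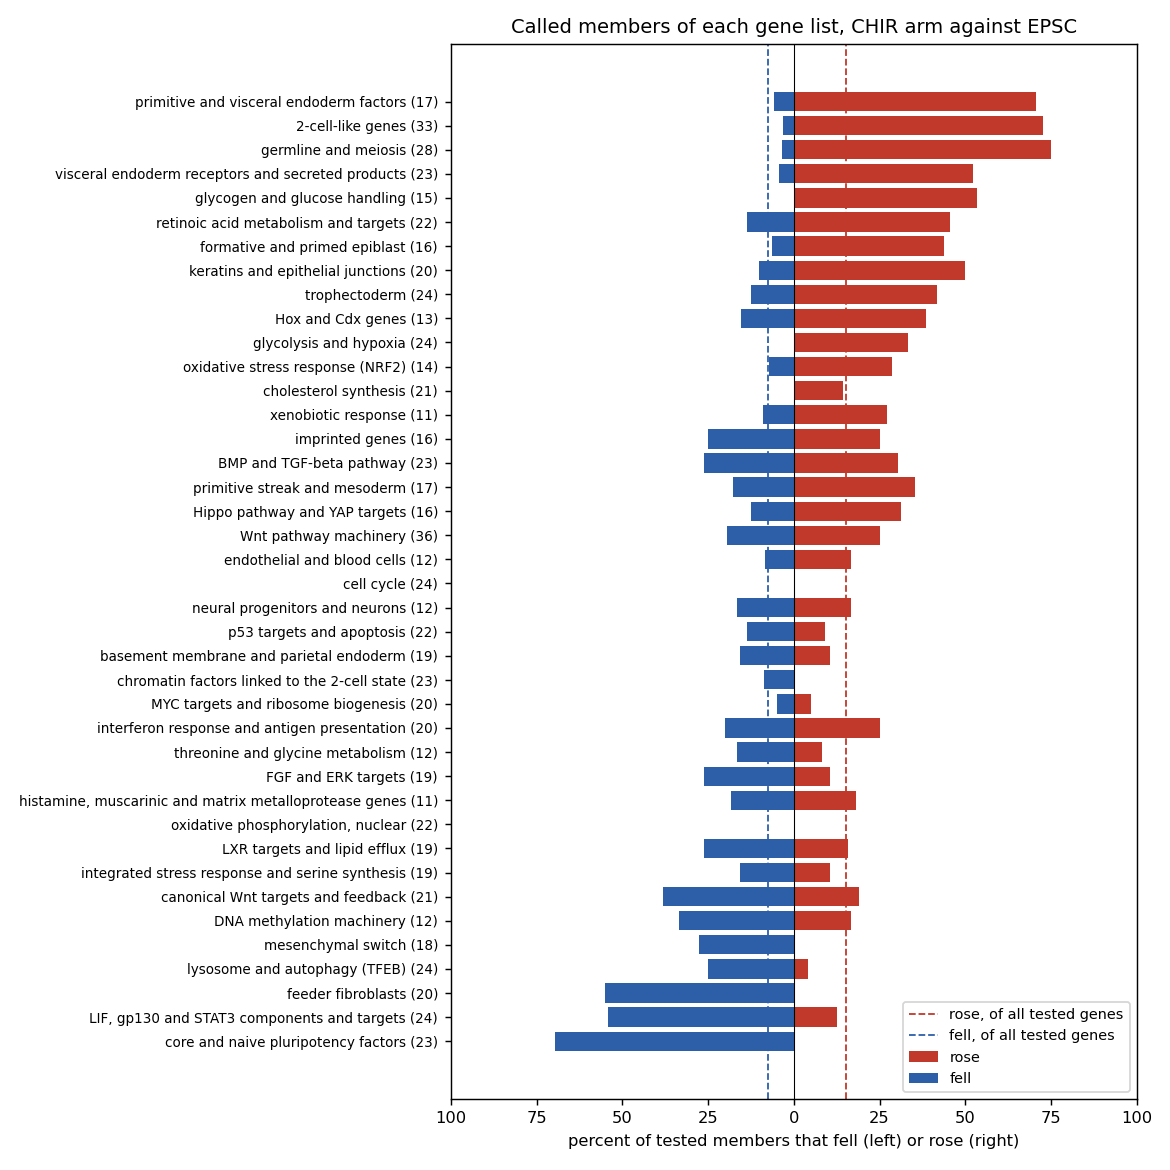
For each of the 40 gene lists, the percent of tested members that rose (red, right) or fell (blue, left) in the CHIR arm, with the number tested in brackets and lists ordered by median log2 fold change (genes with no count in EPSCs at their bound). Dashed lines are the same over all 19756 tested genes (15.2% and 7.4%): the pluripotency list has the longest bar to the left and the germline list the longest to the right.

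Markers of cells that EPSC cultures could hold beside pluripotent cells were read from fixed lists. Fibroblasts serve as feeders for such cells, and of 20 tested fibroblast genes 11 fell and 0 rose (median -1.12). The level summed over the list was from 211.5 to 299.8 CPM in the arm and 593.4 and 644.2 in EPSCs. The collagens Col1a1, Col1a2 and Col3a1 fell by 1.82 (SE 0.28), 2.06 (SE 0.20) and 3.21 (SE 0.23), and Postn and Thy1 by 1.22 and 1.16. None of these defining markers was at 0 in a library. Col6a3 went from 42.7 and 41.9 CPM to 2.08, 1.92, 4.63 and 3.28, and Fn1, the fibronectin gene, of the mesenchymal list, from 1281 and 1319 to 375, 267, 403 and 384. Of the 20 genes 3 are also on another list, and the labels name no feeder layer. The part of fibroblast RNA in the genes that fell was not tested. Endothelial and blood markers summed to between 58.54 and 76.39 CPM in the arm and 82.62 and 85.14 in EPSCs, with Hbb-y listed at 0 throughout. Much of this sum was Pecam1, at 54.5 and 56.9 CPM in EPSCs and 41.1 to 52.4 in the arm, which was not called. Cdh5 went the other way, with no count in EPSCs and 0.222 to 0.556 CPM in the arm, and was called higher. Neural markers summed to between 121.9 and 161.2 CPM in the arm and 187.9 and 189.5 in EPSCs. Nkx6-3, which is part of this sum, had 26.5 and 29.2 CPM in EPSCs and from 0 to 0.361 in the arm. Of the defining neural markers, Pax6 had 0.51 and 0.926 CPM in EPSCs and 0.148 to 0.973 in the arm, and was not called. Dcx was at most 0.206 CPM in these libraries. Sox1 and Tubb3 were listed at 0, as the widely used genes named at the start also were. Of the 6 pluripotent markers 4 fell and 0 rose, and Pou5f1, Nanog and Esrrb were present in each of the 6 libraries. The other markers, Dppa5a and Tdgf1, were not called. Dppa5a had 503 to 661 CPM in the arm and 1140 and 1150 in EPSCs, and Tdgf1 478 to 598 in the arm and 614 and 683 in EPSCs.

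Some called genes differed in size between the treatments, and these values describe genes picked for that difference. The EPSC-expressed genes Trpm1, Tgm3 and Tmem151b fell in both treatments, Tgm3 by 6.50 with CHIR and 5.39 with Elvitegravir on the log2 scale, and Tmem151b by 4.12 and 2.94. Among the risen genes, Msmo1, an enzyme of cholesterol synthesis, had 167 and 315 CPM with CHIR and 137 and 139 with Elvitegravir against 79.9 and 74.6 in EPSCs. The ephrin receptor Epha5 had 16.4, 40.1, 16.4 and 14.7 against 8.72 and 9.9, and the myosin gene Myh7b 10.6, 3.48, 12.8 and 13.6 against 3.34 and 3.55. In these 3 genes CHIR library 2 was the library that stood off from the other 3 of the arm. Without it Msmo1 and Epha5 were no longer called, with log2 fold changes of 0.92 and 0.75. Their calls, and that of Myh7b, were also lost without EPSC library 2, those of Epha5 and Myh7b without EPSC library 1, and that of Myh7b when Elvitegravir library 1 or 2 was left out. In the direct contrast their adjusted p values were 0.512 for Msmo1, 0.512 for Epha5 and 0.512 for Myh7b.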

How the data were processed

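Messenger RNA bound to oligo-dT beads was fragmented, primed at random and sequenced from both ends on an Illumina HiSeq, per the labels' protocols. Per the submitters' processing notes, Trimmomatic 0.39, STAR 2.7.10b with mm10, and featureCounts 2.0.6 were used; neither the annotation nor the strand setting is stated in the sources. The values the authors deposited are raw counts for each gene.

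The 12 libraries of the first set (EPSC, CHIR alone or with 1 of 3 further compounds, and the full 2-day medium) were fitted together with edgeR 4.0.16 in R 4.3.3: filterByExpr, TMM, and the quasi-likelihood F test with the CHIR arm as 1 mean of 4 libraries, then with 1 mean per group. P-values were Benjamini-Hochberg adjusted over 19756 genes. CPM values use TMM library sizes, folds over a group without a count are bounds at a floor of 6 counts, set after the even counts were seen, and SE is the log2 fold change divided by the square root of F. Symbols were placed on GENCODE M21 (53292 matched).

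The members and lists were chosen with earlier results of these data known. Genes were named by a rule: the 12 risen and 12 fallen of the largest agreed change with 10 CPM or more, without predicted genes; of each list the first 6 tested members and up to 4 more called; and the 3 risen and 3 fallen that differ most between the treatments. Some of these are left out, and cell type markers were named from fixed lists. On simulated data with 50 changed genes per fold, this contrast called 30% at a fold of 2, 94% at a fold of 4 and 100% at a fold of 8, with 2 false calls among 19210 genes. The simulated counts were drawn for each gene on its own, without a shift shared across a library such as that of CHIR library 2. The false calls are therefore not an error rate for the real contrast. Alternatives were RLE factors, no filter, DESeq2 1.42.0, other sets of libraries, counts divided by 2, a replicate block, and leaving out each library; edgeR's newer option and leaving out library 2 of both CHIR and CHIR with PD0325901 were added after the data were seen.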

Additional observations from a re-analysis of the deposited data

Results flagged for a closer look

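In each group of 4 arm libraries, a value was marked when its gap to the nearest of the other 3 took a larger share of the whole range than Dixon's critical value for 4 samples, which chance does in about 1 of 20 groups. Over all tested genes CHIR library 2 was the marked library in 14.9% of them, and each of the other 3 arm libraries in between 0.769% and 0.992%.

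Among the genes named here, CHIR library 2 was marked for 14. It was above the other 3 for Slc38a4 (166.6 CPM, the others between 131.2 and 136.4), Jak1 (84.85 CPM, others 74.06 to 74.93) and Epha5 (40.15 CPM, others 14.73 to 16.41). It was below them for Halr1 (48.81 CPM), Rhox5 (3.96), Pou3f1 (27.9), Sox3 (6.439), Wnt4 (2.849), Wnt8a (88.29), Lamb1 (202.5), Lamc1 (277.6), Stra6 (1.85), Thy1 (4.367) and Fn1 (266.6 CPM, others 375.4 to 402.8). The other marks were Epha4 in Elvitegravir library 2 (3.392 CPM, others 3.59 to 3.614), Gata3 in the same library (0.0556 CPM, others 0.2013 to 0.2485), Dhrs3 in CHIR library 1 (2.981 CPM, others 2.081 to 2.196) and Ppp1r3c in Elvitegravir library 1 (1.544 CPM, others 3.28 to 3.479). Except for Epha5 and Sox3, these genes kept their call without the marked library.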

How the results depend on the processing

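Of 144 named genes 138 kept their call and sign under each alternative, with the cell type markers Pecam1, Cdh5, Pax6, Dcx, Dppa5a and Tdgf1 not among the 144. The arm against EPSCs gave from 3646 to 4461 calls without 1 library, 3960 from the 6 libraries alone and 4799 without library 2 of CHIR and of CHIR with PD0325901; agreement ran from 3337 to 4133 genes without 1 library. CHIR alone gave 3705 to 5784 calls and CHIR with Elvitegravir 3226 to 4206 against EPSCs, list genes 284 to 307 and named genes 122 to 127. CHIR with Elvitegravir against CHIR gave 171 calls without the filter, 2 with all 52 libraries, 1 with DESeq2, 1 without both libraries 2, and from 0 to 1247 (without CHIR library 1) without 1 library; the cause was not tested. With the replicate number as a block the counts were 4411 for the arm, 4602 for CHIR, 3987 for CHIR with Elvitegravir and 0 between the treatments. The numbers do not pair the samples of these groups (correlations of deviations from -0.02 to -0.01). Between CHIR and CHIR with PD0325901, which is in the same fit, the correlation was 0.45. The block changed no call of a named gene but Sox3, which it added. Calls among oxidative phosphorylation genes rose to 1 without Elvitegravir library 2 or EPSC library 2. In simulated data 30% of 2-fold changes, which lie at the size threshold, and 94% of 4-fold changes were called; the part of depth in this was not tested. Where leaving out 1 library left 1 in a group, it was assumed to vary like the other groups.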

Other observations

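Further gene lists gave these counts in the CHIR arm against EPSCs, beside 15.2% risen and 7.4% fallen of all tested genes. Of 21 cholesterol synthesis genes 3 rose and 0 fell, with a median log2 fold change of 0.54. Genes of the oxidative stress response driven by NRF2 rose in 4 of 14 and fell in 1 (median 0.64), and xenobiotic response genes rose in 3 of 11 and fell in 1 (median 0.44). Imprinted genes were divided, with 4 of 16 risen, Slc38a4 among them, and 4 fallen. Mesenchymal genes rose in 0 of 18 and fell in 5 (median -0.59), and Fn1 was one of those that fell. Integrated stress response and serine synthesis genes rose in 2 of 19 and fell in 3, with 1 risen and 2 fallen without CHIR library 2. Threonine and glycine metabolism had 1 of 12 risen and 2 fallen, and the histamine, muscarinic and matrix metalloprotease genes, which include targets of agents in LCDM, 2 of 11 risen and 2 fallen. Endothelial and blood markers rose in 2 of 12 and fell in 1, and neural markers rose in 2 of 12 and fell in 2, Nkx6-3 being a member that fell.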
